A study of Mus musculus with 12 samples.

Results

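The genes described here are those measured in a comparison of palbociclib with vehicle in LSK cells, a sorted bone marrow fraction of the mouse that lacks lineage markers, carries Sca-1 and Kit, and includes the blood stem cells. A gene was taken if its base mean, the mean normalized count over all libraries of the authors' fit, was at least 50 and its symbol did not begin with Igh, Igk or Igl. That gave 11939 of the 55487 genes in the deposited tables. The vehicle and palbociclib groups held 3 libraries each, out of 12 in the series, whose other groups were given ruxolitinib or both drugs. All groups shared the C57BL/6 strain, bone marrow as the tissue, a source labelled BMT LSK cells and homozygous JAK2V617F, an activating mutation found in myeloproliferative neoplasms. The labels give no dose, duration, age or sex, and nothing in them ties each library to its own animal, so p-values measure the spread between libraries, which may be technical.

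Palbociclib blocks CDK4 and CDK6, the kinases that cyclin D switches on in the first gap phase of the cell cycle. They phosphorylate the retinoblastoma protein, which releases the E2F factors that drive entry into DNA synthesis. Blood stem cells are mostly quiescent, whereas the progenitors in the same gate divide and begin to express the genes of the myeloid, erythroid and megakaryocyte lineages. The comparison asks what blocking these kinases changes in mutant progenitors. The cell cycle, stem cell and monocyte genes are left aside below in favour of the other programs.

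Of 11933 genes with an adjusted p, 603 rose with palbociclib (5.05%) and 532 fell (4.46%) in the authors' deposited DESeq2 table, at an adjusted p under 0.05, 1135 in all (9.51%). In the tables that share the vehicle libraries, 127 rose (1.06%) and 275 fell (2.30%) with ruxolitinib, and 1712 rose (14.3%) and 1821 fell (15.3%) with both drugs. With the Wald statistic read against a t distribution with 16 degrees of freedom, 230 rose and 151 fell. The 16 degrees count libraries of other groups in the authors' fit, and the 12 libraries of this series alone would give fewer. The count by t, stricter than the deposited one, is given beside gene groups below as the t reference. The counts of each gene group are to be read beside the 5.05% and 4.46% of all genes, and many lie near those shares. Values written with ± are log2 fold changes over vehicle with their standard errors. Among called genes rises were larger than falls: the median log2 fold change was 0.93 for rises and -0.62 for falls. Of these, 270 and 137 changed at least 2-fold. The rises had a median base mean of 509 and a median coefficient of variation of 20.6%, against 1783 and 14.8% for the falls. Small changes pass less easily in low and variable genes. Over all genes described the median was -0.01, with quartiles of -0.20 and 0.22. Values per library were not used here. Group levels were solved from the deposited standard errors and are given as modelled normalized counts with 95% intervals, which reflect counting error and the spread of the model alone. They come from the same fold changes and errors as the p-values, so intervals that do not overlap are no separate support. The implied reads in described genes were 25 to 30 M a library with palbociclib and 31.4 to 34.7 M with vehicle. Each palbociclib library thus held fewer than each vehicle library. Genes with a base mean of 50 to 60 had 9 of 226 called (3.98%), and those just outside the limit, at 40 to 50, had 25 of 343 (7.29%).

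**Figure D1:**
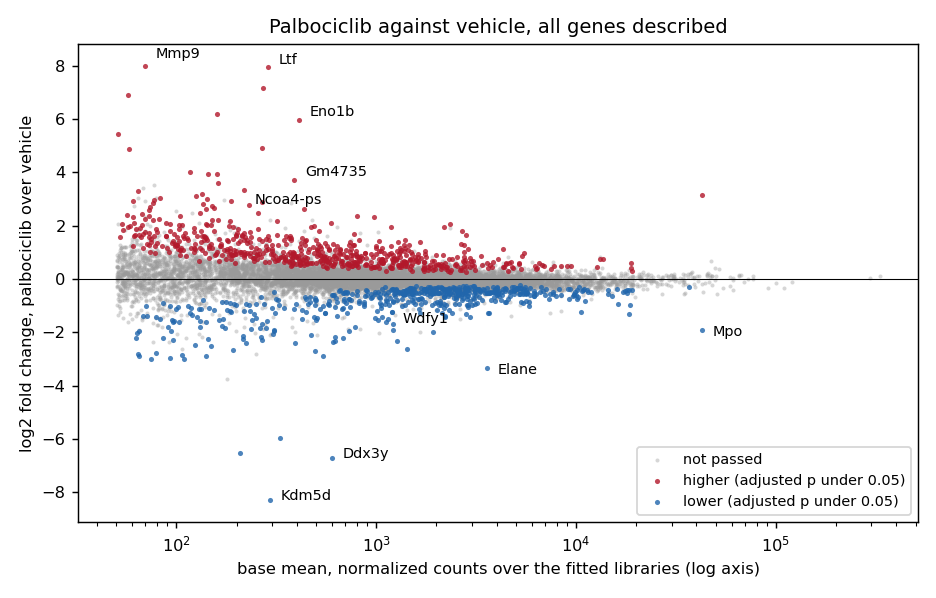
Each point is 1 of the 11939 genes described, with the base mean in normalized counts on a log axis and the log2 fold change of palbociclib over vehicle. The 603 genes in red rose and the 532 in blue fell, and the farthest points are granule genes such as Ltf and Mmp9 above 0 and Y-linked genes such as Kdm5d below 0.

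The markers of the gate were present. Kit, the stem cell factor receptor, was modelled at 14277 normalized counts (95% interval 12040.0 to 16929) under vehicle and 15506 under palbociclib (13077 to 18387) and was at 0.12 ± 0.18 (adjusted p = 0.77) in the authors' deposited table. Ly6a, which encodes Sca-1, stood at 1004 normalized counts (95% interval 719 to 1402) under vehicle and 2102 under palbociclib (1506 to 2934), a rise of 1.07 ± 0.35 (adjusted p = 0.032) in the authors' deposited table that did not pass with the t reference. Among 14 genes of the lineage depletion markers only 4 reached a base mean of 50. Cd3e and Cd8a were at 1.01 and 0.442, base means that pool all fitted libraries. Of the Y-linked genes Kdm5d, Uty, Ddx3y and Eif2s3y, all 4 fell in the authors' deposited table. Ddx3y and Eif2s3y went from 422 and 274 modelled counts in vehicle to 4.03 and 4.40 with palbociclib. Kdm5d and Uty were at -8.30 ± 1.46 and -6.53 ± 1.19 in that table, and their levels had no exact solution. The X-inactivation RNA Xist was at 0.66 ± 0.79 there and did not pass (adjusted p = 0.70). The Y-linked transcripts separated the groups, the labels give no sex, and the part of the animals' sex in the other results was not tested. In bulk RNA, fewer cells of a type and less RNA per cell cannot be told apart.

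Genes of the extracellular matrix and its proteases rose more than they fell. Of 54 described, 11 rose and 2 fell (6 and 1 with the t reference), and the median log2 fold change was 0.37. The rises include Mmp9, also in the list of late neutrophil genes, and Mmrn1, also a megakaryocyte marker, and the part of those cells in the count was not tested. Col16a1, a collagen that sits on fibril surfaces, was modelled at 294 normalized counts (95% interval 209 to 414) under vehicle and 1472 under palbociclib (1052 to 2061), and the intervals do not overlap. Its log2 fold change was 2.32 ± 0.35 (adjusted p = 5.1e-08) in the authors' deposited table. Col4a1 and Col4a2 encode the partner chains of basement membrane collagen IV and lie head to head on chromosome 8, with RefSeq starts 21 bases apart on opposite strands (GRCm38.p6). They moved by nearly the same amount, with values of 1.16 ± 0.20 (adjusted p = 2.5e-06) and of 1.27 ± 0.23 (adjusted p = 1.3e-05) in the authors' deposited table. Fibronectin, the product of Fn1, binds integrins and collagen, and its gene went from 53.1 normalized counts (95% interval 30.2 to 93.3) under vehicle to 333 (192 to 576) under palbociclib. Agrn, the heparan sulfate proteoglycan agrin, went from 345 normalized counts (95% interval 254 to 468) under vehicle to 740.0 (546 to 1002) under palbociclib, a rise not kept by the t reference. The falls were Col5a1, a fibrillar collagen chain, at -2.68 ± 0.72 (adjusted p = 0.0066), and the sheddase gene Adam17, at -0.33 ± 0.09 (adjusted p = 0.0042), both in the authors' deposited table.

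Genes of collagen folding and of the secretory route gave rises as well. In a list put together after values had been seen, 8 of 20 genes of collagen modification and secretory chaperones rose and none fell by DESeq2 at an adjusted p under 0.05 (7 with the t reference, and 0 lower at an unadjusted p under 0.05). Fkbp9, a prolyl isomerase of the endoplasmic reticulum, stood at 959 normalized counts (95% interval 837 to 1098) under vehicle and 1835 under palbociclib (1604 to 2099), at 0.94 ± 0.14 (adjusted p = 3.7e-08) in the authors' deposited table. The gene of the prolyl 3-hydroxylase family member P3h3 had 1.70 ± 0.31 (adjusted p = 1.0e-05) and that of the procollagen protease Bmp1 1.31 ± 0.25 (adjusted p = 4.4e-05) in the authors' deposited table. The other rises were those of P4htm, Ppic, Rcn2, Rcn3 and Sumf2. The lysyl hydroxylase genes Plod1, Plod2 and Plod3 did not pass, at -0.04 ± 0.40, 0.60 ± 0.24 and -0.31 ± 0.21 in the authors' deposited table, nor did the prolyl hydroxylase genes P4ha1, P4hb, P3h1 and P3h2, from -0.20 ± 0.16 for P4hb to 1.38 ± 0.86 for P3h2 there. Bmp1 also belongs to the TGF-beta and BMP list, where it and the latent TGF-beta binding proteins Ltbp4 and Ltbp3 were the 3 of 32 members that rose, at 1.81 ± 0.38 and 0.72 ± 0.18 for the binding proteins in the authors' deposited table. Emid1, a secreted matrix protein gene, rose by 1.27 ± 0.20 (adjusted p = 2.4e-07) in the authors' deposited table.

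Genes of protein O-mannosylation were a further set, also listed after values had been seen. They include the enzymes that build the chain through which dystroglycan holds matrix laminin, dystroglycan itself and the Tmtc enzymes, which mannosylate cadherins. Of 20 genes described, 6 rose and none fell by DESeq2 at an adjusted p under 0.05 (3 with the t reference, 0 lower at an unadjusted p under 0.05). Large2, which extends the laminin-binding repeat, was modelled at 138 normalized counts (95% interval 103 to 184) under vehicle and 421 under palbociclib (318 to 558). The enzymes of the chain core Pomgnt1, Pomgnt2, Pomk and Pomt2 rose by smaller amounts, at 0.61 ± 0.14, 0.55 ± 0.15, 0.51 ± 0.14 and 0.51 ± 0.14 in the authors' deposited table, and of these Pomgnt1 kept its call with the t reference. The remaining rise was that of Tmtc2, at 1.45 ± 0.37 (adjusted p = 0.0033) in the authors' deposited table, kept by the t reference. The dystroglycan gene Dag1 did not pass, at 0.16 ± 0.20 (adjusted p = 0.73) in the authors' deposited table. Among 70 other enzymes of sugar chains and their sulfation, listed after values had been seen too, the calls split, 7 higher and 6 lower. Chst2, Chst10, Csgalnact1 and B4galnt4 rose, at 2.47 ± 0.60, 2.03 ± 0.46, 1.09 ± 0.26 and 1.23 ± 0.24, and Mgat5 and B4galt1, which branch and extend N-linked chains, fell, with values of -0.82 ± 0.20 and of -0.59 ± 0.15, in the authors' deposited table.

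Adhesion and junction genes followed, with 7 of 32 higher and 2 lower (4 and 1 with the t reference). Cldn12, a claudin, rose from 247 normalized counts (95% interval 193 to 316) under vehicle to 613 (481 to 779.5) under palbociclib. Esam, an endothelial and stem cell adhesion molecule, rose by 1.25 ± 0.33 (adjusted p = 0.0048), and the scaffold gene Mpdz by 2.20 ± 0.52 (adjusted p = 0.0012), in the authors' deposited table. The don't-eat-me signal gene Cd47 fell by a small and precise amount, -0.50 ± 0.10 (adjusted p = 0.00019) in the authors' deposited table. Of 18 integrin genes, 0 passed the DESeq2 test at an adjusted p under 0.05, with 3 higher and 2 lower at an unadjusted p under 0.05. The tetraspanins, which organize integrins and receptors in the membrane, rose in 5 of 25 cases when counted with the Ms4a family, and the falls there were Ms4a2, Ms4a6c and Cd82. Tspan4 was at 0.67 ± 0.10 (adjusted p = 1.1e-07) and Cd63 at 0.99 ± 0.18 (adjusted p = 1.8e-05) in the authors' deposited table. The membrane coat genes of caveolae Cavin1 and Cavin3, looked at after values were seen, rose by 1.29 ± 0.28 and 2.18 ± 0.42 in the authors' deposited table.

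Markers of stroma and endothelium were read beside these matrix and adhesion results. Of 25 such genes 8 were described, 1 rose (Emcn) and none fell by DESeq2 at an adjusted p under 0.05, and 1 was lower at an unadjusted p under 0.05. Their summed modelled level was 10286 normalized counts in vehicle and 9001 with palbociclib, or 6062 and 5496 without Pecam1. Pecam1, Runx2 and Pdgfrb, at 4224, 2882 and 2185 in vehicle, made up most of the sum, which thus says little of the other members. The defining endothelial marker Cdh5 had a base mean of 6.58, and the fibroblast collagens Col1a1 and Col3a1 had 37.0 and 3.46. These base means pool all fitted libraries and do not give the level in either group. Below the base mean limit, the stromal chemokine gene Cxcl12 rose, at a base mean of 28.3 and a log2 fold change of 4.13 ± 0.91 (adjusted p = 0.00044) in the authors' deposited table. The part of such cells in the matrix and adhesion counts was not tested.

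Growth factors and their kinase receptors rose in 9 of 37 cases and fell in 1 (4 and 1 with the t reference), with a median of 0.46. Angpt1, the ligand of the Tie2 receptor that stem cells themselves make, was modelled at 9477 normalized counts (95% interval 7877 to 11403) under vehicle and 16106 under palbociclib (13388 to 19377). Tie1, the orphan partner of Tie2, rose by 1.31 ± 0.28 (adjusted p = 0.00024) in the authors' deposited table. The heparin-binding factor gene Ptn went from 10.2 normalized counts (95% interval 5.80 to 17.9) under vehicle to 77.1 (48.2 to 123.3) under palbociclib, a low level in both groups with intervals that do not overlap. Igfbp7, which binds insulin-like growth factors, stood at 1.59 ± 0.37 (adjusted p = 0.0011), and the neuregulin gene Nrg2 was the fall, at -1.82 ± 0.44 (adjusted p = 0.0020), in the authors' deposited table. Of the TNF superfamily 4 of 22 rose (Tnfrsf22, Tnfrsf18, Cd27 and Tnfsf9), from 0.44 ± 0.14 for Cd27 to 0.87 ± 0.28 for Tnfsf9 in the authors' deposited table (27.2% of the exonic bases of Tnfrsf18 are shared with Gm16008), and none of these calls was kept by the t reference.

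In the Wnt list 2 of 25 genes rose and 1 fell. The Frizzled receptor gene Fzd3 was modelled at 97.3 normalized counts (95% interval 72.3 to 131) under vehicle and 306 under palbociclib (230.2 to 406), at 1.65 ± 0.30 (adjusted p = 1.3e-05) in the authors' deposited table. Fzd8 rose and the secreted Wnt binder Sfrp4 fell, with values of 2.58 ± 0.75 (adjusted p = 0.013) and of -2.83 ± 0.84 (adjusted p = 0.016) in the authors' deposited table, neither with the t reference. Of 20 genes of the Notch pathway 2 rose and 5 fell (2 and 2 with the t reference). The ligand gene Jag2 and the glycosyltransferase gene Mfng, which tunes ligand choice, rose by 0.97 ± 0.25 and 0.60 ± 0.16 in the authors' deposited table. The receptor gene Notch1, at -0.89 ± 0.27 (adjusted p = 0.021), and the E3 ligase gene Dtx4, at -1.78 ± 0.36 (adjusted p = 0.00010), fell in the authors' deposited table. The target gene Hes1, at 1.82 ± 0.69 (adjusted p = 0.078), and the receptor gene Notch3, at 1.24 ± 0.53 (adjusted p = 0.13), were above 0 there and did not pass. Of 28 genes of axon guidance 2 rose, the ephrin receptor gene Ephb4 and the semaphorin gene Sema7a, and 3 fell, Sema4a, Sema3d and the semaphorin receptor gene Nrp1, with changes from 2.25 ± 0.51 for Ephb4 to -1.59 ± 0.36 for Sema4a in the authors' deposited table. The Hedgehog transducer gene Smo, outside the lists and chosen after its value was seen, rose by 0.82 ± 0.17 (adjusted p = 9.3e-05) in the authors' deposited table.

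Genes of cytokine signalling changed in both directions. Of 19 genes of myeloid cytokine receptors and their ligands Csf1 and Flt3l 2 rose and 7 fell (1 and 3 with the t reference). Both chains of the interferon gamma receptor fell, Ifngr1 at -0.94 ± 0.17 (adjusted p = 5.8e-06) and Ifngr2 at -0.76 ± 0.20 (adjusted p = 0.0044) in the authors' deposited table. The shared beta chains of the GM-CSF, IL-3 and IL-5 receptors, Csf2rb and Csf2rb2, had values of -0.79 ± 0.26 and of -1.09 ± 0.38 in the authors' deposited table, and as close paralogs they could share reads. In the interleukin list 6 of 38 rose and 5 fell. The receptor genes Il27ra, Il11ra1 and Il17rc rose with the t reference too, at 0.94 ± 0.19, 0.94 ± 0.21 and 3.05 ± 0.68 in the authors' deposited table, whereas the IL-33 receptor gene Il1rl1 fell, at -1.41 ± 0.30 (adjusted p = 0.00032) there. Il6st and Il6ra, which together form the IL-6 receptor, both fell, with values of -0.53 ± 0.16 and of -0.72 ± 0.23 in the authors' deposited table.

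Surface and cytosolic sensors of myeloid cells gave more falls than rises. In the list of lectin, Fc and paired receptors 7 of 28 fell and none rose by DESeq2 at an adjusted p under 0.05, with 3 falls kept by the t reference and 2 higher at an unadjusted p under 0.05, and a median of -0.56. Clec5a, a receptor that signals through Dap12, went from 336 normalized counts (95% interval 193 to 583) under vehicle to 47.0 (26.4 to 83.5) under palbociclib. Of 38 genes of Toll-like receptors and inflammasomes 6 fell and 1 rose. The inflammasome sensors Nlrc4 and Mefv fell, with values of -1.77 ± 0.37 (adjusted p = 0.00017) and of -2.90 ± 0.63 (adjusted p = 0.00038) in the authors' deposited table, and the pore-forming Gsdmd rose by 0.33 ± 0.09 (adjusted p = 0.0084). Rab7b, a late endosome GTPase, was among the largest falls at -2.99 ± 0.51 (adjusted p = 1.9e-06) in the authors' deposited table, from 242 normalized counts (95% interval 152 to 386) under vehicle to 30.6 (18.4 to 50.7) under palbociclib. Of 8 genes of the phagocyte oxidase, grouped after values were seen, 1 rose, the organizer gene Noxo1, at 1.09 ± 0.36 (adjusted p = 0.036) in the authors' deposited table, and 2 fell. The subunit gene Ncf1 and the phagosomal proton channel gene Hvcn1 fell, with values of -1.15 ± 0.24 and of -1.45 ± 0.34 in the authors' deposited table, and 44.2% of the exonic bases of Hvcn1 are shared with Tctn1, so its reads are uncertain.

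Mast cell and basophil genes, read as another cell type that the gate could hold, fell in 4 of 13 cases and rose in none by DESeq2 at an adjusted p under 0.05 (3 with the t reference, 1 higher at an unadjusted p under 0.05), and their summed level went from 25203 to 20735 normalized counts, or from 20833 to 19624 without Prss34. Hdc, which makes histamine, was modelled at 1168 normalized counts (95% interval 805 to 1694) under vehicle and 275 under palbociclib (189 to 401). Iron and haem genes fell in 6 of 30 cases and rose in 2. Alas1, the first enzyme of haem synthesis in most cells, went from 3998 normalized counts (95% interval 3253 to 4913) under vehicle to 1469 (1193 to 1808) under palbociclib, at -1.44 ± 0.22 (adjusted p = 2.7e-08) in the authors' deposited table. The iron exporter gene Slc40a1 and the iron reductase gene Steap3 had values of -1.70 ± 0.51 (adjusted p = 0.017) and of -0.70 ± 0.20 (adjusted p = 0.013) in the authors' deposited table, calls that the t reference did not keep. Of 27 erythroid markers 3 fell and none rose at an adjusted p under 0.05 by DESeq2 (3 higher at an unadjusted p under 0.05), and their summed level was 55009 in vehicle and 31661 with palbociclib. Their part in the iron and haem result was not tested.

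**Figure D2:**
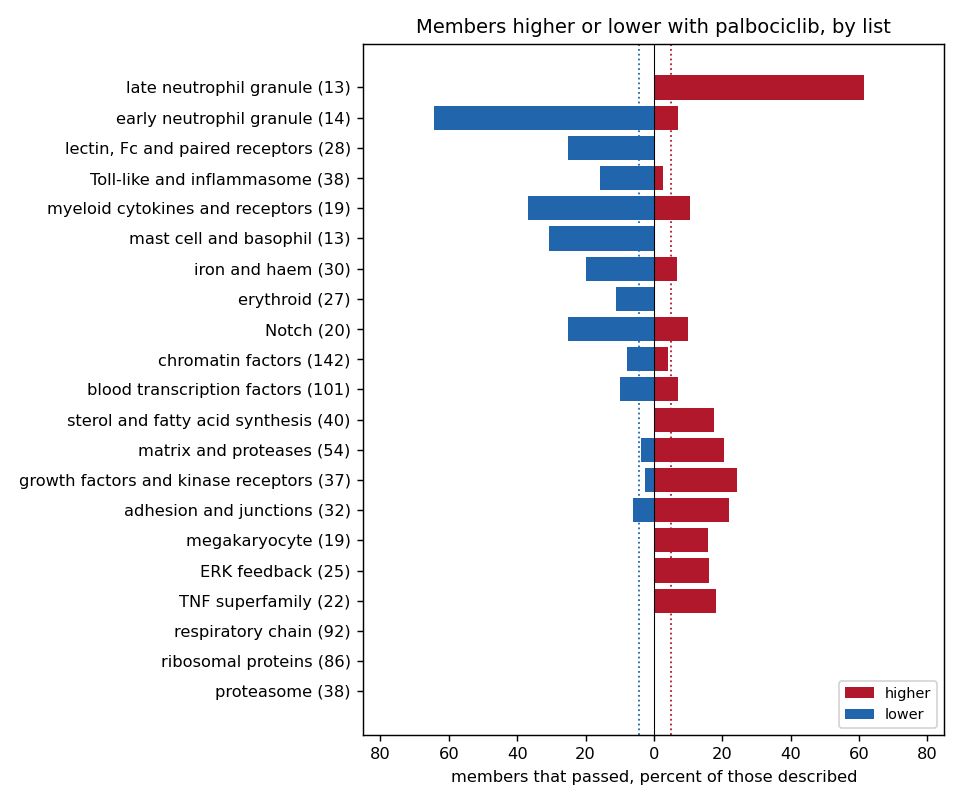
Bars give the percent of each list's described members, numbered in brackets, that rose (red, right) or fell (blue, left) at an adjusted p under 0.05, and dotted lines mark the 5.05% and 4.46% of all genes. The late and early neutrophil lists reach farthest on opposite sides, and the respiratory chain, ribosomal and proteasome lists have no bar. Some late neutrophil genes reached the base mean limit through their level with palbociclib, which favours rises in that list.

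Neutrophil granule genes parted by the stage at which they are made. Early, or azurophil, granules form in promyelocytes, and later granules in myelocytes and beyond. Of 14 early genes 9 fell and 1 rose, and of 13 late genes 8 rose and none fell by DESeq2 at an adjusted p under 0.05, with 0 lower at an unadjusted p under 0.05. With the t reference 6 early falls and 7 late rises stayed. The base mean limit pools all fitted libraries, and 13 of 23 late genes reached it, against 14 of 15 early genes. Some late genes reached it through their level with palbociclib. Camp and Mmp9 had base means of 57.4 and 69.5, against modelled levels of 2.76 and 1.53 in vehicle. The limit thus favours late genes that rose, and the late count is a description only. Mpo, myeloperoxidase, was modelled at 98091 normalized counts (95% interval 63431 to 151689.6) under vehicle and 25825 under palbociclib (16699 to 39938), and Prtn3, proteinase 3, at 18249 normalized counts (95% interval 14257 to 23358) under vehicle and 7756 under palbociclib (6058 to 9929.5). Elane, neutrophil elastase, stood at 9951 normalized counts (95% interval 5312 to 18640.2) under vehicle and 975 under palbociclib (519.9 to 1828). Among late genes the antimicrobial peptide gene Camp went from 2.76 normalized counts (95% interval 0.474 to 16.05) under vehicle to 330.1 (64.1 to 1701) under palbociclib and the chitinase-like Chil3 from 10.9 normalized counts (95% interval 2.80 to 42.3) under vehicle to 792 (212 to 2961) under palbociclib. The intervals do not overlap for these genes, but those of Camp and Chil3 span more than 10-fold within a group. The summed level of the early list was 178470.4 normalized counts in vehicle and 73118 with palbociclib, and 80379 and 47293 without Mpo. That of the late list was 5956 and 14368. Ly6g, the mature neutrophil surface marker, had a base mean of 4.09, a value pooled over all fitted libraries that does not give its level in either group. Whether 1 or all 3 palbociclib libraries carry the late genes cannot be read from group values.

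The promoters of 3 early genes that fell are shown because they hold a motif that was found after the values were seen. GAGGAAGT, a form bound by ETS factors such as PU.1, or its reverse complement ACTTCCTC lies within the 300-base RefSeq promoters of Elane, Mpo and Prtn3, which are 3 of the 8 early genes that fell and have an entry. Of all 27025 genes with a promoter 997 hold it (3.69%), of genes that fell 28 of 424 (6.60%), and of genes that rose 22 of 465 (4.73%). None of the 7 late genes that rose and have an entry holds these letters, and among late genes S100a8, which did not pass, holds them. The windows lie at chr10:79886203-79886258 for Elane, chr11:87793536-87793591 for Mpo and chr10:79879548-79879603 for Prtn3, all on the plus strand of GRCm38.p6, with the motif in capitals and its first base at 85, 224 and 95 bases before the start. A match is a description of the letters and shows no binding.
Elane: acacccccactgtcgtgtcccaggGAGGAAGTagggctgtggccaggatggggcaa
Mpo: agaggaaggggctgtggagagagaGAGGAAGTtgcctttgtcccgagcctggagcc
Prtn3: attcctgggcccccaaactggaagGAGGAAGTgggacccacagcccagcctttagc

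**Figure D3:**
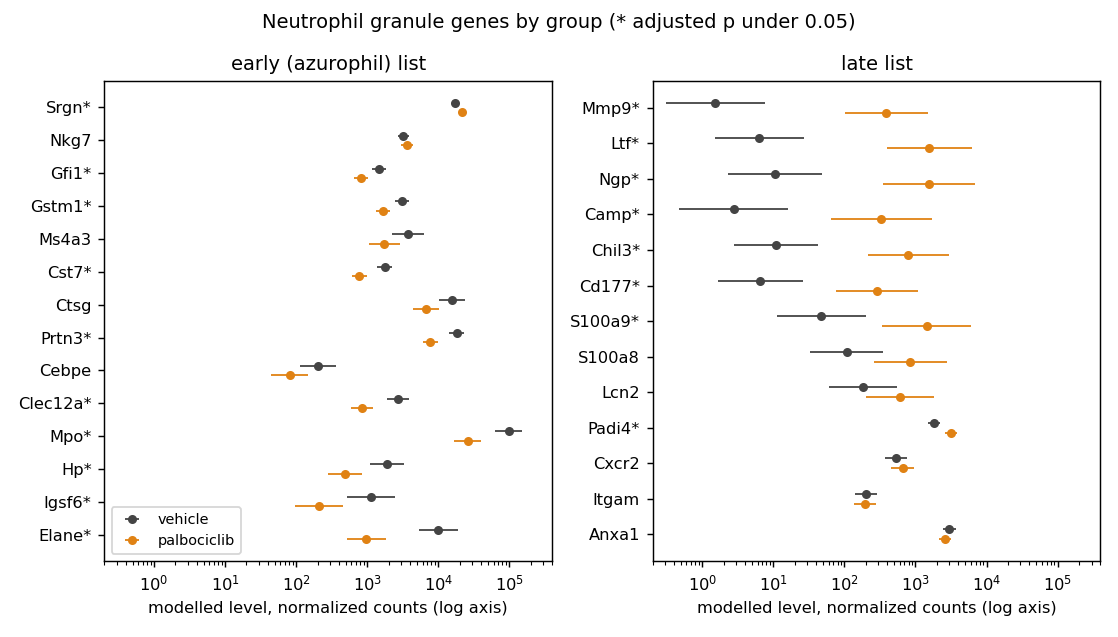
Modelled group levels in normalized counts on a log axis, with 95% intervals, for the 14 early and 13 late neutrophil genes described, vehicle in grey and palbociclib in orange. Stars mark an adjusted p under 0.05: most early genes lie lower with palbociclib, and late genes such as Ltf and Mmp9 lie higher with wide intervals.

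Transcription factors of blood cells changed in both directions, 7 higher and 10 lower of 101 (1 and 3 with the t reference). Tcf15, known from quiescent mouse stem cells, was modelled at 35.2 normalized counts (95% interval 19.7 to 62.8) under vehicle and 216 under palbociclib (124 to 377). Mycn rose from 1288 normalized counts (95% interval 784 to 2118) under vehicle to 4469 (2720.0 to 7341) under palbociclib, and Prdm16 by 1.48 ± 0.40 (adjusted p = 0.0069) in the authors' deposited table. On the other side the TIFA inhibitor gene Tifab went from 1418 normalized counts (95% interval 855 to 2353) under vehicle to 189.6 (114 to 316) under palbociclib, and Zeb2 fell, at -0.76 ± 0.19 (adjusted p = 0.0038) in the authors' deposited table. Of 11 Hox genes 0 passed by DESeq2, 4 being higher and 0 lower at an unadjusted p under 0.05. Among nuclear hormone receptors, listed after values were seen, the retinoic acid receptor gene Rarb and the progesterone receptor gene Pgr rose, by 3.28 ± 0.89 and 2.19 ± 0.69, and the oestrogen receptor gene Esr1 fell, at -0.66 ± 0.19 (adjusted p = 0.010), in the authors' deposited table. Top2b shares 34.1% of the exonic bases of Rarb, so its reads are uncertain. Foxp1 fell, at -0.65 ± 0.11 (adjusted p = 5.4e-06), and Rbms1, an RNA-binding protein gene, at -1.25 ± 0.17 (adjusted p = 6.7e-10), both in the authors' deposited table.

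Counts for genes of large nuclear complexes are given beside the 4.46% of all genes that fell and the 5.05% that rose. Of 142 chromatin genes 11 fell, the Y-linked demethylase gene Kdm5d among them, and 6 rose, and no direction is read from these counts. The acetyl-lysine reader gene Brd8 and the deacetylase gene Hdac7 fell, at -0.52 ± 0.11 (adjusted p = 0.00010) and -0.54 ± 0.13 (adjusted p = 0.0010), and the Polycomb reader gene Cbx6 rose by 0.64 ± 0.11 (adjusted p = 4.6e-06), in the authors' deposited table. Among 16 cohesin genes, listed after values were seen, 4 fell (25%) and 1 rose (6.25%). The falls ran from -0.38 ± 0.12 for the release factor gene Wapl to -0.64 ± 0.16 for the loader gene Nipbl in the authors' deposited table, with the ring genes Smc3 and Rad21 between. The meiotic ring subunit gene Rec8 rose, by 1.37 ± 0.35 (adjusted p = 0.0043) in the authors' deposited table. Of 27 nuclear pore genes 4 fell (Tpr, Nup88, Nup98 and Nup160) and none rose by DESeq2 at an adjusted p under 0.05, with 0 higher and 12 lower at an unadjusted p under 0.05, and of 52 genes of the mediator and RNA polymerase II 6 fell and none rose by DESeq2 at an adjusted p under 0.05 (1 higher at an unadjusted p under 0.05). Those 4 and 6 falls were 14.8% and 11.5% of the genes described, and none was kept by the t reference. Both lists were made after values were seen. Polr2a, the catalytic subunit, was modelled at 12065 normalized counts (95% interval 9353 to 15563) under vehicle and 7103 under palbociclib (5505 to 9164). Of 65 splicing genes 4 fell and 1 rose, beside 4.46% and 5.05% of all genes. The branch point factor gene Sf3b1 was at -0.42 ± 0.09 (adjusted p = 0.00051) and Prpf40b at 0.90 ± 0.23 (adjusted p = 0.0048) in the authors' deposited table.

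Housekeeping machinery did not pass. Of 92 genes of the respiratory chain, 86 ribosomal protein genes and 38 proteasome genes, 0 passed the DESeq2 test at an adjusted p under 0.05. At an unadjusted p under 0.05 the higher and lower counts were 2 and 2, 0 and 0, and 0 and 1. The medians were 0.02, 0.09 and -0.02. The 13 genes of the mitochondrial genome had a median of -0.34, and 2 of them were lower at an unadjusted p under 0.05 without passing by DESeq2.

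Glutathione, drug and oxidant handling changed in both directions, 7 higher and 4 lower of 67. Glutathione reductase, the product of Gsr, fell from 4193 normalized counts (95% interval 3721 to 4725) under vehicle to 2725 (2416 to 3074) under palbociclib, and the transferase genes Gstm1 and Mgst1 had values of -0.89 ± 0.23 and of -1.19 ± 0.36 in the authors' deposited table. Gstm2, a transferase of the same family as Gstm1, went the other way, at 2.82 ± 0.81 (adjusted p = 0.012) in the authors' deposited table. The drug efflux pump gene Abcg2, which marks side-population stem cells, rose by 0.67 ± 0.18 (adjusted p = 0.0051), and the haem oxygenase gene Hmox1 by 1.93 ± 0.58 (adjusted p = 0.017), in the authors' deposited table. Nfe2l2, the regulator of many of these genes, fell, at -0.41 ± 0.13 (adjusted p = 0.019) in the authors' deposited table. In sterol and fatty acid synthesis 7 of 40 rose and none fell by DESeq2 at an adjusted p under 0.05 (1 with the t reference, 0 lower at an unadjusted p under 0.05). Of 21 ATF4 targets and amino acid transporters 1 rose, the mTOR inhibitor gene Ddit4, at 1.43 ± 0.28 (adjusted p = 4.2e-05) in the authors' deposited table. The stress sensors Atf6 and Ern1 of the endoplasmic reticulum fell, with values of -0.54 ± 0.14 (adjusted p = 0.0048) and of -0.53 ± 0.14 (adjusted p = 0.0068) in the authors' deposited table.

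Sphingolipid genes fell more often than they rose, 5 against 2 of 37. Sgms2, which makes sphingomyelin at the plasma membrane, went from 240.3 normalized counts (95% interval 123.1 to 469) under vehicle to 30.1 (14.98 to 60.5) under palbociclib. Ugcg, the first enzyme of glycosphingolipids, and S1pr3, a receptor of sphingosine 1-phosphate, fell, with values of -0.77 ± 0.15 (adjusted p = 7.4e-05) and of -1.28 ± 0.34 (adjusted p = 0.0047) in the authors' deposited table. Ormdl3, an inhibitor of the first step of sphingolipid synthesis, rose by 0.67 ± 0.17 (adjusted p = 0.0028) in the authors' deposited table. In the prostanoid list the thromboxane receptor gene Tbxa2r and Ptgs1 rose and Lta4h and Ptgr1 fell, from 1.01 ± 0.34 for Ptgs1 to -1.11 ± 0.31 for Ptgr1 in the authors' deposited table. Cell death genes fell in 5 of 34 cases and rose in 1. Apaf1, the scaffold of the apoptosome, was modelled at 3542 normalized counts (95% interval 3150.3 to 3983) under vehicle and 2128 under palbociclib (1889.7 to 2395). Dram1, a p53 target of the lysosome, went from 337 normalized counts (95% interval 231 to 491) under vehicle to 69.9 (47.0 to 104) under palbociclib.

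Feedback targets of ERK rose in 4 of 25 cases and fell in none by DESeq2 at an adjusted p under 0.05 (2 with the t reference, 2 lower at an unadjusted p under 0.05). Ccnd1, cyclin D1, whose kinases the drug blocks, was modelled at 2122 normalized counts (95% interval 1661 to 2711) under vehicle and 6693 under palbociclib (5243 to 8545), and 23.4% of its exonic bases overlap the gene LTO1. The phosphatase genes Dusp4 and Dusp6, which switch ERK off, had values of 1.78 ± 0.44 (adjusted p = 0.0023) and of 0.90 ± 0.30 (adjusted p = 0.039) in the authors' deposited table. Cdc42bpb, a kinase that Cdc42 binds, rose from 238 normalized counts (95% interval 181 to 313) under vehicle to 826 (632 to 1080.2) under palbociclib. Heterotrimeric G protein genes gave 6 rises and 4 falls of 56, with Gnaz at 1.61 ± 0.30 (adjusted p = 1.5e-05) and Gna12 at -0.54 ± 0.11 (adjusted p = 0.00017) in the authors' deposited table. F2rl3, the thrombin receptor PAR4 of platelets, rose by 0.80 ± 0.13 (adjusted p = 1.4e-06) in the authors' deposited table and was 1 of 6 of 61 G protein-coupled receptor genes to rise, against 3 that fell.

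Solute carriers and ion channels passed at rates near those of all genes: 10 of 200 solute carriers rose and 12 fell, and 4 and 3 of 60 ion channels. The largest change among the carriers that passed was that of Slc17a8, a vesicular glutamate transporter, from 33.6 normalized counts (95% interval 13.7 to 82.4) under vehicle to 517 (214 to 1245) under palbociclib. The zinc and manganese importer gene Slc39a8 fell, at -0.82 ± 0.19 (adjusted p = 0.00073) in the authors' deposited table. Of 30 ABC transporter genes 5 rose and 3 fell (2 and 3 with the t reference). The peroxisomal fatty acid carrier gene Abcd2 was at -1.82 ± 0.39 (adjusted p = 0.00023) in the authors' deposited table.

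Membrane traffic genes gave calls in both directions. Of 115 genes of Rab proteins, SNAREs and sorting nexins 8 rose and 4 fell, near the 5.05% and 4.46% of all genes. Snap47 was at 1.14 ± 0.21 (adjusted p = 1.5e-05) and Stx2 at -0.98 ± 0.20 (adjusted p = 0.00018) in the authors' deposited table. In a list of clathrin and adaptor genes made after values were seen, 8 of 40 fell and 1 rose (3 and 0 with the t reference). Necap2, which recycles receptors through early endosomes, had the second smallest p of all falls, from 3089.6 normalized counts (95% interval 2730.5 to 3496) under vehicle to 1553 (1369.6 to 1760.5) under palbociclib. Subunits of the AP-3 adaptor, which sends cargo to lysosome-related granules, fell too, Ap3s1 at -1.29 ± 0.24 (adjusted p = 2.4e-05) and Ap3m1 at -0.56 ± 0.10 (adjusted p = 1.5e-05) in the authors' deposited table. The clathrin heavy chain gene Cltc was at -0.59 ± 0.17 (adjusted p = 0.012) and the light chain gene Cltb, the rise, at 0.78 ± 0.22 (adjusted p = 0.012) in the authors' deposited table.

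Genes best known from neuronal synapses gave more rises than falls. In a list made after values were seen, 13 of 21 scaffolds and receptors rose and 1 fell (4 and 1 with the t reference). The scaffold genes Dlg3 and Dlg4 were modelled at 897 normalized counts (95% interval 754 to 1067) under vehicle and 1535 under palbociclib (1292 to 1825) and at 809 normalized counts (95% interval 704 to 929) under vehicle and 1267 under palbociclib (1104 to 1453). Nsmf, which signals from synapse to nucleus in neurons, rose by 0.94 ± 0.15 (adjusted p = 1.2e-07), and Nsg1, of endosomal receptor sorting, by 2.35 ± 0.49 (adjusted p = 0.00019), in the authors' deposited table. The fall was that of Gria3, a glutamate receptor subunit, from 2082 normalized counts (95% interval 1634 to 2653) under vehicle to 741 (580.2 to 947) under palbociclib. Npdc1, a neural differentiation gene, had the fourth smallest p of the genes that rose and went from 44.0 normalized counts (95% interval 30.5 to 63.4) under vehicle to 299.5 (214 to 419) under palbociclib. The myosin chaperone gene Unc45b rose, at 3.12 ± 0.63 (adjusted p = 0.00010), and so did the p38 gamma kinase gene Mapk12, at 2.96 ± 0.49 (adjusted p = 8.8e-07), in the authors' deposited table.

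By position, the densest rises lay on the X chromosome. In windows of 20 neighbouring described genes, of which there were 11530 and in which the median count was 1 in each direction, the most rises were 7. All 7 were of the Armcx, Bex, Tceal, Gprasp and Arxes genes, a placental mammal cluster with roles that include mitochondrial movement and growth factor signalling, between 134686519 and 136711478 on chromosome X of GRCm38. The tables hold 22 genes of the cluster, and 16 were described: 7 rose, none fell by DESeq2 at an adjusted p under 0.05, and 12 were above 0, with a median log2 fold change of 0.41. The window was found from these values, so they are a description. Bex1 had the largest change among those that passed, from 77.9 normalized counts (95% interval 50.02 to 121) under vehicle to 288 (187 to 443) under palbociclib. Armcx6, a relative of mitochondrial transport proteins, rose by 0.72 ± 0.15 (adjusted p = 0.00023), and Bhlhb9 by 0.39 ± 0.12 (adjusted p = 0.020), in the authors' deposited table. The exons of Bhlhb9 overlap those of Gprasp1 and Gprasp2 in 8.58% of their bases. Armcx1, Armcx2, Arxes2 and Bex3 lay near the threshold, with adjusted p-values from 0.042 to 0.050, and like Bhlhb9 did not pass with the t reference. The same 16 genes had a median of 0.36 with ruxolitinib and 0.65 with the combination, comparisons that share the vehicle libraries. The densest falls were 8 in a window on chromosome 19 that holds Ms4a6c, Ms4a2, Osbp, Mpeg1, Dtx4, Lpxn, Tle4 and Gna14, with Mpeg1, the macrophage pore protein gene, at -1.90 ± 0.37 (adjusted p = 4.3e-05) in the authors' deposited table.

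Promoters of the X-linked cluster are shown because many hold one 8-letter word, noticed after the sequences were read. TCACGTGA, which is its own reverse complement and contains the E-box CACGTG, occurs in 9 of the 21 cluster genes with a RefSeq promoter (42.9%), against 304 of 27025 genes in all (1.12%), 213 of 9263 described genes (2.30%) and 19 of 1046 on the X chromosome (1.82%). It occurs in 5 of 15 described members (33.3%) and 3 of 7 that rose. Over all genes that rose 6 of 465 hold it (1.29%), and of those that fell 7 of 424 (1.65%). Whether the word goes with the rises was not tested. Below are 56 bases around it, with the motif in capitals, from Armcx1 (chrX:134717910-134717965, plus strand) and Armcx6 (chrX:134751415-134751470, minus strand), which rose, and from Tceal1 (chrX:136707956-136708011, plus strand), at 0.85 ± 0.51 in the authors' deposited table and not passed. The build is GRCm38.p6, and the motif begins 4, 27 and 2 bases before the annotated starts.
Armcx1: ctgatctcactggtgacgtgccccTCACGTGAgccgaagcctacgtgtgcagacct
Armcx6: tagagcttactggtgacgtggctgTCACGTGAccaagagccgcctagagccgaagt
Tceal1: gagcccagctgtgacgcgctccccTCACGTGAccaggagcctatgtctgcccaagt

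**Figure D4:**
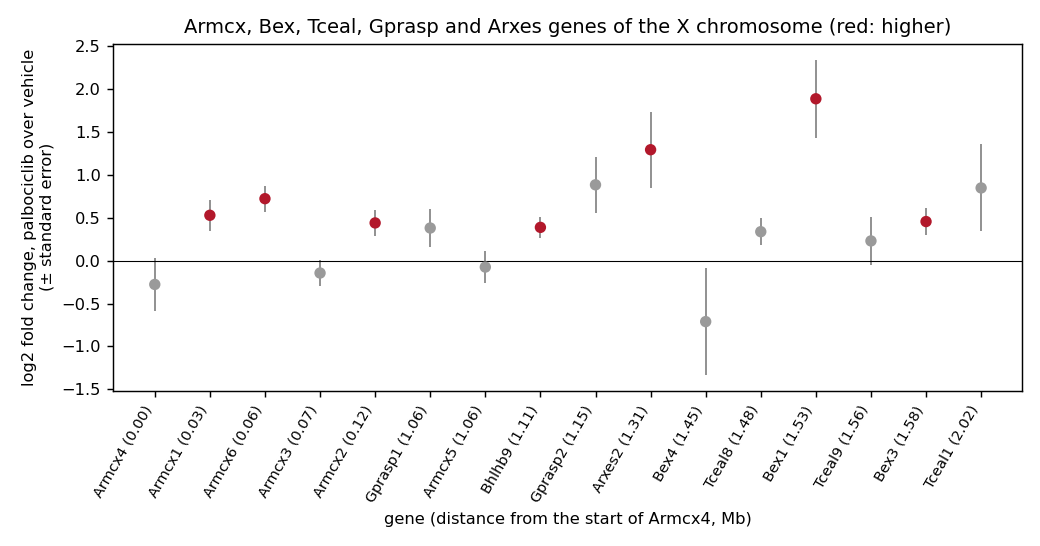
Log2 fold change of palbociclib over vehicle with its standard error for the 16 described genes of the X-linked cluster, in order of position, with the distance from the start of Armcx4 in Mb in brackets. The 7 genes in red rose, 12 of 16 lie above 0, and Bex1 is highest.

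By gene type, 564 of 11099 protein-coding genes rose (5.08%) and 520 fell (4.69%). Of 534 long noncoding or unclassified genes 34 rose (6.37%) and 9 fell (1.69%), and of 278 pseudogenes 5 rose and 2 fell. The smallest p-values of all the rises belonged to near copies of expressed genes. Ncoa4-ps, a pseudogene on chromosome 12 whose transcript is 99.9% identical to Ncoa4 over its whole length, was modelled at 30.1 normalized counts in vehicle, 306 with palbociclib, 21.1 with ruxolitinib and 441 with the combination. Its parent Ncoa4, the carrier of ferritin to autophagy, did not pass, at -0.22 ± 0.26 in the authors' deposited table. The enolase copies Eno1b and Gm4735 are 99.5% and 99.6% identical to Eno1 in the aligned stretch, and were modelled at 7.36 normalized counts in vehicle, 464 with palbociclib, 9.88 with ruxolitinib and 447 with the combination, and at 33.3 normalized counts in vehicle, 439.8 with palbociclib, 36.6 with ruxolitinib and 368.2 with the combination. Eno1 itself was at -0.39 ± 0.20 (adjusted p = 0.22) in the authors' deposited table. Reads can be split between such copies by the counting, so these 3 values are uncertain, as are those of Erdr1 and Gm47283, which share 100% of 529 aligned bases and both rose.

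Palbociclib was set beside ruxolitinib, the other single drug, by testing the difference of the 2 changes with their errors added, which is conservative because both share the vehicle libraries. Of 11933 genes, 4 lay above (0.0335%) and 4 below (0.0335%) at an adjusted p under 0.05. Above were Eno1b, Ncoa4-ps, Gm4735 and Lyz2, and below were Wdfy1, Kdm5d, Uty and Ddx3y. Lyz2, the lysozyme of macrophages and granulocytes and a near copy of Lyz1, stood at 2953 normalized counts in vehicle, 6468 with palbociclib, 2838 with ruxolitinib and 6122 with the combination. Wdfy1, an adaptor of Toll-like receptor signalling, stood at 1775 normalized counts in vehicle, 756 with palbociclib, 1549 with ruxolitinib and 816 with the combination. All 8 lay on the same side of vehicle with palbociclib and with the combination, which share the vehicle libraries, while with ruxolitinib their adjusted p against vehicle ran from 0.64 to 0.95 in the authors' deposited table. The Y-linked transcripts moved with these genes across the 4 groups, and the part of differences between the animals in them was not tested. With the error of the shared vehicle libraries taken out, 49 genes lay above and 14 below, among them Ccnd1 and Ccnd2, whose changes were 1.66 ± 0.25 and 0.76 ± 0.17 with palbociclib in the authors' deposited table, against 0.40 ± 0.25 and -0.03 ± 0.17 with ruxolitinib. Kdm5d and Uty, whose levels had no exact solution, are not in those counts.

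**Figure D5:**
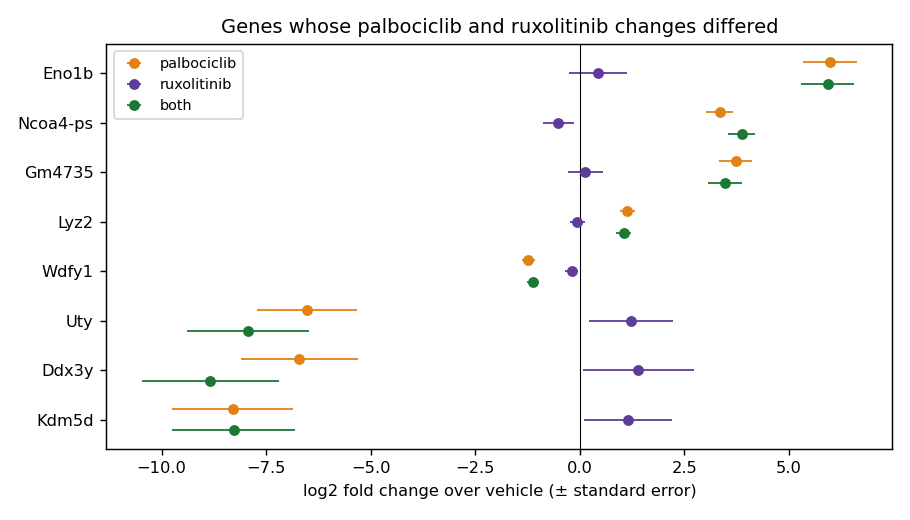
Log2 fold change over vehicle with its standard error for the 8 genes whose change with palbociclib differed from that with ruxolitinib, for palbociclib (orange), ruxolitinib (purple) and both drugs (green). In each gene the orange and green points lie on the same side of 0 and apart from the purple one.

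Of the remaining cell type lists, 3 of 19 megakaryocyte genes rose, Trpc6 and Mmrn1 among them, and the summed level of the list was 22940.0 in vehicle and 38411 with palbociclib. Plasma cell genes gave 1 rise among 19, the joining chain gene Jchain, from 1264 normalized counts (95% interval 494 to 3230.4) under vehicle to 11105 (4346 to 28372) under palbociclib, and the summed level went from 18989 to 31959, or from 17725 to 20854 without Jchain. The B cell list gave 1 rise among 7, the coactivator gene Pou2af1, at 2.62 ± 0.91 (adjusted p = 0.047) in the authors' deposited table, neither it nor Jchain with the t reference. The interferon-induced list gave 5 rises and 1 fall of 64, beside 5.05% and 4.46% of all genes. The ubiquitin-like Isg15 was at 1.31 ± 0.28 (adjusted p = 0.00034) and Ifi209 at -2.26 ± 0.46 (adjusted p = 9.4e-05) in the authors' deposited table. The Ifi209 transcript is 96.9% identical to Ifi214 over 56.6% of its length, so its value is uncertain. Of 7 T and natural killer cell genes 0 passed by DESeq2, with 3 higher and 0 lower at an unadjusted p under 0.05. Tert, the catalytic subunit of telomerase, chosen after its value was seen, was modelled at 110.3 normalized counts (95% interval 88.2 to 138) under vehicle and 249.1 under palbociclib (202 to 308).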

How the data were processed

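RNA of sorted cells was selected for polyA, made into libraries with a NEBNext Ultra II kit and sequenced, per the labels' protocols. Whether the counting used strand is not given in the sources used here, so genes that overlap, antisense ones included, are uncertain. The build GRCm38 and the tools featureCounts 2.0.0, SAMtools 1.10, HISAT2 2.0.1 and fastp 0.20.0 are named, with no role or order, in the submitters' processing notes, as is DESeq2. The authors deposited 1 DESeq2 table per drug against vehicle, with a base mean (a normalized signal), log2 fold change, standard error, score (the Wald statistic), p-value and adjusted p-value for 55487 genes. Those are the values called, and every adjusted p printed for palbociclib is the Benjamini-Hochberg value of the authors' DESeq2 fit.

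Each table carries base means over 24 libraries, so 12 libraries of other groups entered the authors' fit. Size factors were recovered from genes with 1 read, and group levels and the spread were solved from the 3 standard errors of a gene, for 12041 of 12095 genes (99.6%). The median coefficient of variation so obtained was 15.7% over those genes. The levels are thus solved here. The steps were checked on simulated data and run with Python 3.11.15, numpy 2.4.6, pandas 2.3.3 and scipy 1.17.1. Near copies were found with BLAST+ 2.17.0, and exon overlaps with bedtools 2.31.1 on GENCODE gene models of GRCm38. Promoters are RefSeq's, GRCm38.p6, from 250 bases before to 50 after the start (300 in all).

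The genes, the 70 gene lists and the tests were chosen with earlier results of these data known, and lists described as made after values were seen were added later. Genes were named by rule: the 15 largest changes and the 15 smallest p-values in each direction, and up to 4 members of each list in each direction, 276 in all. The other genes given with values were chosen after their values were seen. Alternatives were other base mean limits (10 and 200), an adjustment over described genes, centring on the median, a t reference, a fold limit and a threshold of 0.01, and, against ruxolitinib, other correlations of the estimates. A few results are not reported here.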

Additional observations from a re-analysis of the deposited data

How the results depend on the processing

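The alternatives left the log2 fold changes as they were, apart from centring, which used the median of -0.0065. The signs of the genes named by rule were thus bound to stay and are no support. Rises outnumbered falls except with a base mean limit of 200, where falls were the more numerous. The 603 rises and 532 falls became 717 and 558 with a base mean limit of 10, 443 and 475 with 200, 633 and 561 with adjustment over described genes, and 648 and 534 after centring on the median. They were 230 and 151 with the t reference, 270 and 137 with a log2 fold change of at least 1, and 305 and 217 at an adjusted p under 0.01. Of the 276 genes named by rule, all kept their calls under adjustment over described genes and under centring, while 115 lost them with the t reference and 161 kept them. Against ruxolitinib, the 4 genes above and 4 below became 52 and 16 with a correlation of 0.5 between the estimates, and 49 and 14 with the recovered variances.

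The deposited tables hold no values per library, so leaving out each replicate was not run, and another normalization or count test was not run either. No paired analysis was possible because the deposited tables give comparisons and no values per library. Base means near the limit of 50 limit what can be called, and the intervals of low genes such as Camp are wide. The levels rest on the authors' own dispersion estimates, which borrow from other genes and from the 12 libraries of other groups.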
